A study of Rattus norvegicus with 4 samples.

Results

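The cytosolic ribosomal protein genes were measured in rat oligodendrocyte precursor cells in which the microRNA miR-125a-3p had been raised. Each of these genes encodes a protein of the large (Rpl, Rplp) or small (Rps, Rpsa) subunit of the ribosome that translates nuclear-encoded mRNAs. The genes were chosen by name: a symbol starting with Rpl or Rps and a number, or Rpsa, Rplp0, Rplp1 or Rplp2, without S6 kinase genes and pseudogenes, and a probe well above background on all 4 arrays. The scanner files held RefSeq accessions and no gene names, so each accession was paired with its current symbol in a RefSeq table. In all, 204 probes named 90 such genes, and 87 of these genes passed the filter on signal, out of 23155 features tested. They were 45 large subunit genes, 30 small subunit genes and 12 paralogs or "-like" copies, called copies here. Of the subunit symbols looked for, Rpl37, Rps9 and Rps3a1 were not among the 87, while Rps3a was.

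The study compared 2 samples of precursors transfected with miR-125a-3p mimics with 2 samples transfected with an RNA negative control (miR-neg), each sample on 1 single-colour Agilent array. Both groups used Lipofectamine RNAiMax with 50 nM of RNA, and total RNA was taken 48 h later. Per the labels, the cells came from rat cortex on postnatal day 2 and proliferated for 3 days with bFGF and PDGF, while another label gives 2 days in vitro. The cell type label reads oligodendrocytes, and no label gives a transgene or deletion. The 2 samples per condition are described as independent, but whether they came from different animals or cultures is not said. The p-values here set a difference against how far the samples of a group lay apart, with each gene's spread drawn towards that of all features. That spread may be technical.

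Ribosomal protein mRNAs are among the most abundant in a dividing cell. In mammals most of them begin with a C and a run of pyrimidines, the terminal oligopyrimidine (TOP) tract, through which the kinase mTOR controls how strongly they are translated, so their mRNA levels tend to hold steady while their translation varies. Several, such as Rplp0 and Rpl13a, serve as reference genes in quantitative PCR. A microRNA lowers mRNAs that pair with its seed, bases 2 to 8 from its 5′ end. The mature rat sequence is shown because it is the agent that was raised. It comes from RefSeq (GRCr8, chr1:67350727-67350748, plus strand), with the seed in capitals.
rno-miR-125a-3p: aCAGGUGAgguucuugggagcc

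The TOP tract was looked for at each annotated start in RefSeq's promoter windows (GRCr8), which held 70 of the 87 genes. A tract was a C within 5 bases of the start followed by at least 4 C or T. It was present in 40 of these 70 genes (57.1%), against 17.0% of the 27455 genes in the table. The large and small subunit genes had it in 38 of 60 (63.3%), and the copies in 2 of 10. With the C exactly at the start, 23 of the 70 (32.9%) had it, against 2.63% of all genes. An annotated start can lie some bases from the true one, so a missing match says only that these letters are not in this window.

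The windows below hold 15 bases before the annotated start and 15 from it, 5′ to 3′, with the tract in capitals. They are the reference gene Rplp0, the 3 genes with a tract of 12 bases exactly at the start, and the genes with a window among the 6 highest and 6 lowest differences described further on (Rpl17 is not shown). Coordinates are GRCr8.
Rplp0, chr12:46718376-46718405, minus strand: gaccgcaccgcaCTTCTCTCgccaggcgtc
Rpl10, chrX:157205835-157205864, plus strand: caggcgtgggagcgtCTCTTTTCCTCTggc
Rpl31, chr9:49143096-49143125, plus strand: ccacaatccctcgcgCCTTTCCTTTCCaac
Rpl37a, chr9:81748076-81748105, plus strand: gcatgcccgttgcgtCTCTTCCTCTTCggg
Rpl36a, chrX:102059434-102059463, plus strand: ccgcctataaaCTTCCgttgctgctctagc
Rps26, chr7:1643390-1643419, minus strand: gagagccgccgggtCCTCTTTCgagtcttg
Rps2, chr10:14251833-14251862, plus strand: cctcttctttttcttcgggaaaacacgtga
Rps19l3, chr1:85738117-85738146, plus strand: ctctgggtcgcggctgtgcgcggggccacg
Rpl22l1, chr2:113683181-113683210, plus strand: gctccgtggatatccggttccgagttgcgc
Rps4y2, chr4:183000898-183000927, plus strand: gcgcgcagctCTCCTCactcgcttgtgctc
In Rps2 a pyrimidine run covered the bases up to the annotated start, with too few pyrimidines after any C in reach to count, and the copies Rps19l3 and Rpl22l1 had no tract there. Other motifs were searched on both strands of the whole windows (250 bases before the start and 50 from it): CCGGAAG, the core bound by ETS factors, lay in 28.6% of the ribosomal protein windows and 9.22% of all windows, AAGATGGC, a YY1 core, in 7.14% and 3.44%, and TATAAA in 14.3% and 14.3%. Some other translation genes held the first of these as often or more often, at 29.6% of initiation factor, 34.5% of mitochondrial ribosomal and 50% of ribosome assembly windows. Other TOP mRNAs held it less often, in 1 of 13 windows (7.69%). The second lay in 23.6% of mitochondrial ribosomal, 15.4% of other TOP, 7.41% of initiation factor and 0% of ribosome assembly windows.

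**Figure D1:**
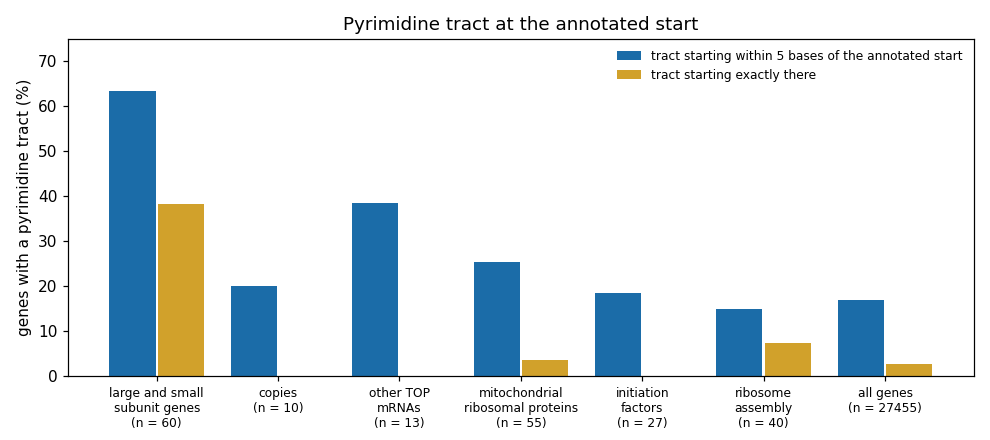
Percent of genes with a pyrimidine tract at the annotated start, by gene list (n is the number of genes with a promoter window). Blue bars count a tract that starts within 5 bases of the start, yellow bars one that starts exactly there, and the large and small subunit genes reach 63.3% and 38.3%.

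The comparison asks whether the ribosomal protein mRNAs differed when miR-125a-3p was raised. None of the 87 genes rose or fell past an adjusted p of 0.05 in limma, where 0.687% of all features did, and 1 gene, Rps4y2, had an unadjusted p under 0.05, against 19.5% of all features. The log2 differences, mimic minus control, ran from -0.53 to 0.23 with a median of 0.06 (1.04-fold), against a median of 0.01 over all features. The difference was under 0.2 either way in 84 of the 87 genes, against 62% of all features. Its 95% limma interval lay within 0.5 either way in 82 of 87, against 56% of all features. The 5 genes whose interval reached beyond were Rps4y2, Rpl17, Rpl17l5, Rps14 and Rps19l3. With 1 array left out the count fell to between 46 (without miR-125a-3p replicate 1) and 80 (without miR-neg replicate 1), and was 48 without miR-125a-3p replicate 2, so the bound is not firm for every gene. The 87 genes had to be well above background on all 4 arrays, the other features on at least 2. With all features held to 4 arrays, the interval lay within 0.5 in 84 of 87 genes and 65.1% of features. Features of like brightness were not compared, so these shares do not show that the family is steadier than other bright genes. A p that misses the threshold does not by itself show equal levels.

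The count of 0 genes was also found with each of the 198 well-measured probes as its own feature and in the other settings that were run. Of these, the fits without a filter on dim probes, with a replicate block or without 1 of the arrays called 0 of all features, so they say nothing about these genes in particular. The count also held where many more features passed. With a variance trend 8.84% of all features passed, with normexp background correction 6.92%, at a looser threshold of 0.1 it was 4.25%, and on probes well above background on all 4 arrays 2.89%. With other scalings or probe choices the share was 0.358% (quantile normalization), 0.885% (median centring), 0.613% (mean of probes) and 0.605% (arrays centred on the 87 genes). The smallest adjusted p among the 87 genes was 0.164 as first fitted, and 0.0583 (with the trend) to 0.439 (without a filter on dim probes) over the alternatives. With 2 samples in each group the smallest p of an exact permutation test is 0.333, so none was run for single genes.

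**Figure D2:**
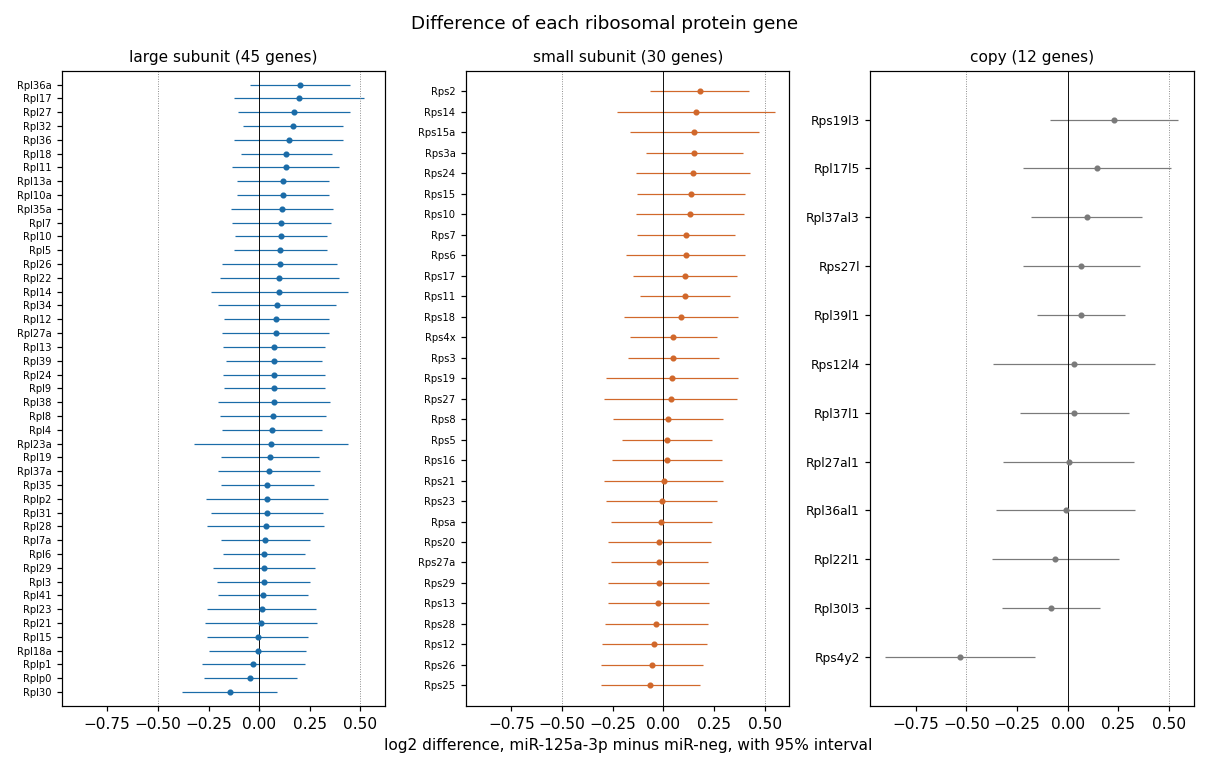
Log2 difference (miR-125a-3p minus miR-neg) of each gene with its 95% limma interval, by class. Dotted lines mark 0.5 either way, and every interval crosses 0 except that of Rps4y2.

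The genes moved together between the arrays of 1 group by more than between groups. Levels here are log2 relative to each array's 75th percentile. The median level over the 87 genes was 8.25 and 8.21 in the miR-125a-3p samples, against 8.05 and 8.26 in the miR-neg samples. Thus miR-neg replicate 1 was the low array, and the other control array was level with the mimic arrays. Replicate 1 lay below replicate 2 of miR-neg in 84 of the 87 genes, all but Rps4y2, Rps4x and Rps2, with a median log2 difference of -0.15, replicate 1 minus replicate 2. The same median over all features was -0.02. Between the mimic arrays it was 0.02 over the 87 genes. Before scaling, the control arrays differed by a median of -0.02 over the 87 genes, while their 75th percentiles, which set the scale, were 745 and 679 in processed signal. Those of the mimic arrays were 702 and 717.

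**Figure D3:**
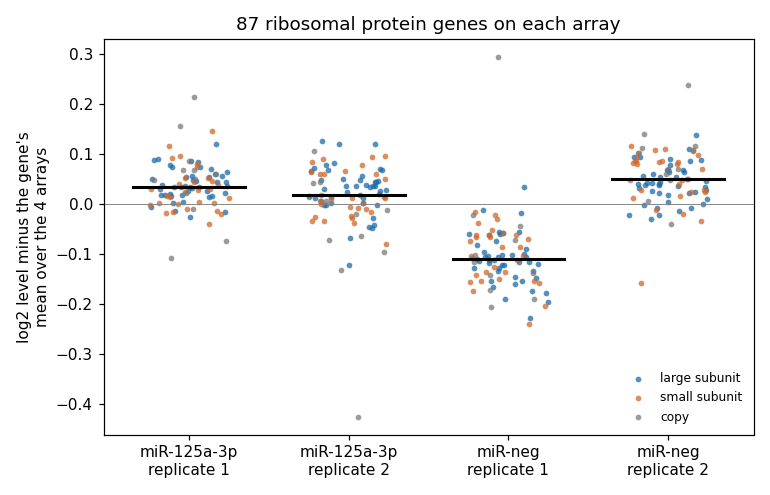
Log2 level of each of the 87 genes minus its own mean over the 4 arrays, by array, with the median as a black bar. The points of miR-neg replicate 1 lie lowest, and those of miR-neg replicate 2 lie beside the miR-125a-3p arrays.

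The sign of the small median difference depended on which control array was used. Of the 87 genes, 68 lay above 0 in the main fit, against 52.5% of all features. Without miR-neg replicate 1, 32 lay above 0 and the median was -0.01. Without miR-neg replicate 2, 83 lay above 0 and the median was 0.14. No direction of the family as a whole can therefore be given. The groups did not overlap in 29 of the 87 genes (33.3%), 27 higher and 2 lower in the mimic samples, against 52.9% of all features (28.7% higher and 24.1% lower). The count moved with the scaling, to 48 with quantile normalization (53.6% of all features) and to 11 with centring on the median (48.8%).

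Spot-to-spot error within an array was small where it could be measured. Most probes that stood for a gene, among them those of Rps4y2 and Rps19l3, had 1 spot and gave no such measure. Of the member probes, 67 or 68 per array were printed as at least 8 spots that could be used, and the median spot-to-spot SD was 0.0318 and 0.0320 on the log2 scale for the miR-125a-3p samples, against 0.0316 and 0.0297 for the miR-neg samples. The SD of the difference between 2 arrays over the 87 genes was 0.07 for the mimic pair and 0.07 for the control pair. Over all features, which include many dimmer ones, it was 0.33 and 0.34. Processed signals of the 87 genes ran from 76.2 to 547653, with a median of 210246, and 0 spots were saturated.

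Different probes of 1 gene mostly gave differences of the same sign. Of 56 genes with more than 1 well-measured probe, 41 had all probes above 0, 9 all below 0, and 6 had probes on both sides. The range between the probes of a gene had a median of 0.05, close to the median difference of 0.06 over the 87 genes. This range was widest, at 0.32, in Rpl22l1, whose probes stood at -0.06 and 0.26. Ribosomal protein genes have many near-identical processed copies in mammalian genomes, so a probe may also bind RNA of a copy, and each value is uncertain in that respect.

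Among large subunit genes, 40 of 45 lay above 0 (median 0.07) and 0 passed. Rplp0 encodes the base of the acidic stalk that recruits elongation factors. Its level was 9.34 and 9.25 in the miR-125a-3p samples and 9.30 and 9.37 in the miR-neg samples, so the groups overlapped. The difference was -0.04 (SE 0.08, n = 2 per group, adjusted p = 0.812 in limma). Rpl5 and Rpl11 form, with 5S rRNA, the particle that binds Mdm2 when ribosome assembly is disturbed. Rpl5 stood at 8.56 and 8.59 in the miR-125a-3p samples and 8.42 and 8.53 in the miR-neg samples. Rpl11 stood at 8.67 and 8.69 in the miR-125a-3p samples and 8.46 and 8.64 in the miR-neg samples. Both were higher in the mimic samples without overlap, by 0.10 and 0.13, and neither passed (adjusted p = 0.553 and 0.516 in limma). Rpl3, at the peptidyl transferase centre, stood at 8.08 and 8.01 in the miR-125a-3p samples and 7.98 and 8.07 in the miR-neg samples, a difference of 0.02 with overlapping groups. Rpl10, a late-joining protein near the P site, stood at 7.20 and 7.16 in the miR-125a-3p samples and 7.02 and 7.12 in the miR-neg samples, a difference of 0.11. Its groups did not overlap, and it did not pass (adjusted p = 0.536 in limma).

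The highest large subunit differences belonged to Rpl36a, Rpl17, Rpl27 and Rpl32. Rpl36a stood at 7.96 and 7.92 in the miR-125a-3p samples and 7.67 and 7.81 in the miR-neg samples, and its 3 probes differed by 0.20, 0.09 and 0.16. Its 95% interval ran from -0.04 to 0.45 (adjusted p = 0.325 in limma). Rpl17, whose protein lines the exit tunnel, stood at 6.78 and 6.83 in the miR-125a-3p samples and 6.48 and 6.73 in the miR-neg samples, a difference of 0.20. Rpl27 stood at 5.26 and 5.34 in the miR-125a-3p samples and 5.04 and 5.22 in the miR-neg samples, and Rpl32 at 8.55 and 8.62 in the miR-125a-3p samples and 8.36 and 8.48 in the miR-neg samples, each a difference of 0.17. In all of them miR-neg replicate 1 was the lowest sample. These 4 genes did not overlap between groups, and none passed. The lowest large subunit gene was Rpl30, whose yeast protein binds its own pre-mRNA and blocks its splicing. It stood at 7.12 and 7.03 in the miR-125a-3p samples and 7.18 and 7.26 in the miR-neg samples, both mimic samples below both controls. The difference was -0.15 (SE 0.09, adjusted p = 0.429 in limma), and its other probes gave -0.11 and -0.11. Relative to the median of the 87 genes, which removes the shift between arrays, Rpl30 stood at -0.22 and Rpl36a at 0.13, again without passing.

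Among small subunit genes, 20 of 30 lay above 0 (median 0.04) and 0 passed. Rps6 is the substrate of the S6 kinases downstream of mTOR. It stood at 7.76 and 7.68 in the miR-125a-3p samples and 7.51 and 7.71 in the miR-neg samples. The groups overlapped, and the difference was 0.11 (SE 0.11, adjusted p = 0.627 in limma). Rpsa, also known as the laminin receptor, differed by -0.01, and Rps27a, made as a fusion with ubiquitin, by -0.02. Rps27 differed by 0.04.

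Rps2 had the highest small subunit difference. It stood at 7.20 and 7.14 in the miR-125a-3p samples and 7.06 and 6.92 in the miR-neg samples, without overlap, a difference of 0.18 (95% interval -0.07 to 0.42, adjusted p = 0.366 in limma). The lowest were Rps25, which initiation at internal entry sites requires, at -0.06, and Rps26, which contacts mRNA at the exit channel, at -0.06. Rps25 stood at 7.81 and 7.82 in the miR-125a-3p samples and 7.81 and 7.95 in the miR-neg samples. Rps26 stood at 8.03 and 7.93 in the miR-125a-3p samples and 7.98 and 8.09 in the miR-neg samples. For both the groups overlapped, and the lowest adjusted p among the 30 was that of Rps2.

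Among the 12 copies, 8 lay above 0 (median 0.03), and they held both ends of the whole range. Their brightness differed widely, and Rpl37l1, with signals from 313895 to 328368, was as bright as many subunit genes. Rps4y2, a paralog of Rps4x, was dim, with signals of 118 and 96.4 in the miR-125a-3p samples and 165 and 144 in the miR-neg samples. Both mimic samples lay below both controls. The log2 difference was -0.53 (SE 0.13, 95% interval -0.90 to -0.16), with an unadjusted p of 0.0159 and an adjusted p of 0.164 in limma over all features. It had 1 probe, so no second probe checks it, while Rps4x differed by 0.05. Normexp background correction gave a difference of -0.34 for Rps4y2.

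Rps19l3, a copy of Rps19, had the highest difference, with levels of 0.62 and 0.42 in the miR-125a-3p samples and 0.22 and 0.37 in the miR-neg samples, a difference of 0.23 (adjusted p = 0.366 in limma). Rpl22l1 encodes a protein that can take the place of Rpl22. It stood at 4.34 and 4.14 in the miR-125a-3p samples and 4.23 and 4.38 in the miR-neg samples, with overlapping groups and a difference of -0.06, while Rpl22 differed by 0.10. Rps27l, which p53 can induce in human cells, differed by 0.07. The other 8 copies, Rpl17l5, Rpl27al1, Rpl30l3, Rpl36al1, Rpl37al3, Rpl37l1, Rpl39l1 and Rps12l4, lay between -0.08 and 0.15. These are values of the brightest probe of each gene. The dimmer probe of Rps12l4 gave 0.33, the highest difference of the 198 well-measured probes, and did not pass (adjusted p = 0.271 in limma).

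Just outside the filter on signal were Rpl39l5, well above background on 2 arrays, and Rpl3l, the muscle paralog of Rpl3, and Rpl27l2, each on 0 arrays. Rpl39l5 stood at -4.60 and -5.18 in the miR-125a-3p samples and -5.06 and -5.04 in the miR-neg samples. Just inside were Rps12l4, at -3.19 and -3.01 against -3.29 and -2.98, and Rpl39l1, at -2.58 and -2.56 against -2.68 and -2.60, mimic samples before controls.

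By TOP tract, the 40 genes with a tract had a median difference of 0.07 and the 30 without one of 0.06, with ranges from -0.53 to 0.20 and from -0.06 to 0.23.

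In the wider translation machinery 1 mitochondrial ribosomal gene rose. Over 6 lists, 1 of 176 tested genes passed in limma, where 0.687% of all features did. Counts at an unadjusted p under 0.05 in these lists are to be read against the 19.5% of all features. Of ribosomal components that the naming rule leaves out, the scaffold gene Rack1 differed by 0.15 and the fusion gene Fau by 0.07, and neither passed. Of 18 other TOP mRNAs, 0 passed (median 0.04), and 0 had an unadjusted p below 0.05. In this list the elongation factor gene Eef1a1 stood at 0.13, the nucleolar chaperone gene Npm1 at 0.16, the intermediate filament gene Vim at 0.17 and the poly(A)-binding protein gene Pabpc1 at -0.21. Of 27 initiation factor genes, 0 passed (median 0.01, 2 at an unadjusted p under 0.05), with Eif4g2 at 0.38 and Eif1ax at 0.31. Of 43 ribosome assembly genes, 0 passed (median 0.05, 1 at an unadjusted p under 0.05), that one being Rpf2, which helps bring the 5S particle to the large subunit, at 0.32.

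Of 17 genes of mTOR, S6 kinase and MYC signalling, 0 passed (median -0.02), and 4 had an unadjusted p under 0.05: the transcription factor gene Mycl (-0.46), the mTOR inhibitor gene Ddit4 (0.37), the translation repressor gene Eif4ebp1 (0.30) and Mtor itself (0.44). With a variance trend, Mycl, Ddit4, Eif4ebp1, Eif4g2, Eif1ax, Rpf2 and the mitochondrial Mrps23 passed as well, each in the same direction, which made 8 of 176 genes where 8.84% of all features passed. The S6 kinase genes Rps6kb1 and Rps6kb2 differed by -0.13 and -0.09.

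Mitochondrial ribosomes are built from a separate set of nuclear genes. Of 68 tested, 50 lay above 0 (median 0.05), 67 did not pass, and Mrps12, a protein of the decoding centre of the small mitochondrial subunit, rose. Mrps12 stood at 4.42 and 4.42 in the miR-125a-3p samples and 3.48 and 3.52 in the miR-neg samples, well separated. The log2 difference was 0.93 (SE 0.07, n = 2 per group, adjusted p = 0.0425 in limma), at its single probe. Its size stayed between 0.85 and 0.94 in every setting tried, but the call ended with quantile normalization (adjusted p = 0.0509), with the arrays centred on the 87 genes (0.0807), with a replicate block (0.1), without the filter on dim probes (0.253) and whenever 1 array was left out (0.177 to 0.257). The next by p were Mrps23 (0.32), Mrps18b (-0.26) and Mrpl15 (0.23), which did not pass.

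**Figure D4:**
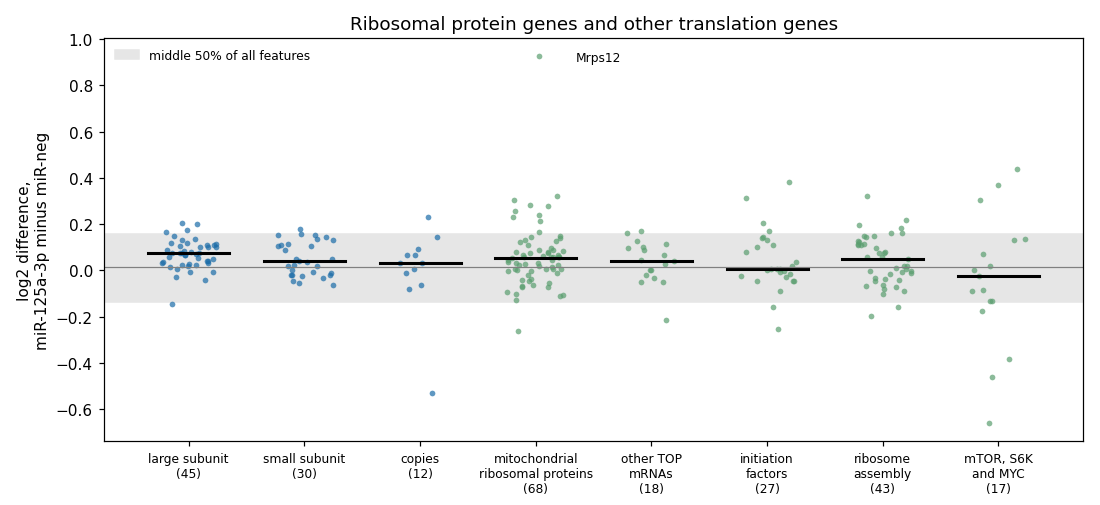
Log2 difference (miR-125a-3p minus miR-neg) of each gene in the ribosomal protein classes and in 5 lists of other translation genes, with list sizes in brackets and the median as a black bar. The grey band holds the middle 50% of all features, and Mrps12, at 0.93, is the highest point.

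Markers of the cells gave this background. Their counts are to be read against all features, of which 0.687% passed in limma and 19.5% had an unadjusted p under 0.05. Without overlap, 28.7% of all features lay higher in the mimic samples and 24.1% lower. All 11 tested precursor markers were well above background on the 4 arrays and 0 passed. Of these, Pdgfra (-0.37) and Bcan (-0.28) lay lower in the mimic samples and Neu4 (0.37) higher, each without overlap and with an unadjusted p under 0.05. The summed level of 11 myelin markers was 603 and 586 in the miR-125a-3p samples and 886 and 911 in the miR-neg samples, in multiples of the 75th percentile, and 2 fell, Aspa and Gpr37, with all 11 below 0. For 11 astrocyte markers it was 209 and 212 in the miR-125a-3p samples and 186 and 198 in the miR-neg samples, and Aldh1l1 rose. The astrocyte sum is mostly that of Aldoc, whose difference was 0.10. Of the 11 markers, 9 lay higher without overlap and 1 lower, with a median difference of 0.32. For 10 microglial markers the summed level was 3.91 and 4.47 in the miR-125a-3p samples and 3.37 and 3.69 in the miR-neg samples. C1qa rose, while Ptprc was well above background on 0 arrays. The microglial sum is mostly that of Cx3cr1 and P2ry12, whose differences were -0.06 and 0.00, while 7 of the 10 markers lay higher without overlap and the median difference was 1.31. For 9 neuronal markers the summed level was 9.03 and 10.2 in the miR-125a-3p samples and 7.76 and 8.06 in the miR-neg samples, and 0 passed. For 6 fibroblast and vessel markers it was 0.979 and 1.12 in the miR-125a-3p samples and 0.577 and 0.563 in the miR-neg samples, Tagln rose (1.21), and 5 of the 6 lay higher without overlap, with a median difference of 1.06. These marker calls end, as all calls do, with a replicate block, without the filter on dim probes or with any 1 array left out. The part of these markers in the values of the ribosomal protein genes was not tested. On a bulk array, fewer cells of a type and less RNA per cell cannot be told apart. The arrays shared 1 slide and 1 scan. Position along 1 axis of that slide followed the treatment, so these cannot be told apart.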

How the data were processed

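The authors read the arrays out with version 10.7.3.1 of Agilent Feature Extraction, as the submitters' processing notes and, per the file headers, the scanner files give it, yielding intensities subtracted for background and detrended within each array. The deposited value table holds log2 values with each column's 75th percentile at 0. From the scanner intensities, control and outlier-flagged spots were dropped, a probe's spots were averaged as log2, and the array's 75th percentile was subtracted. Probes well above background on at least 2 arrays were kept, and the brightest stood for a gene. The scanner files used here held no gene name column, so 21109 of 45598 probes were named through RefSeq accessions (GRCr8 table), which departs from the design as first written. They held no mean spot signal, so normexp (offset 50) used median signals.

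The test was limma's (version 3.58.1, R 4.3.3; eBayes after lmFit, two-sided), with Benjamini-Hochberg adjustment over 23155 features. The procedure was tested on simulated data. Named genes were the 6 highest and 6 lowest members, all copies, 10 members listed for their roles, any gene past the threshold and up to 4 genes per other list by smallest p. Of these, 1 gene is not reported here. Rpl31, Rpl37a, Rps4x, Rps14, the named markers, Rps6kb1 and Rps6kb2 were added after their values were seen. Members and lists were chosen with earlier results of these data known. Alternatives were background correction, scaling, filter, probe choice, variance model, replicate block and leaving out each array. The number of arrays limits the precision.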

Additional observations from a re-analysis of the deposited data

How the results depend on the processing

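The count of ribosomal protein genes past the threshold was 0 under every alternative run, of which those that called 0 of all features could give no other count, with 0 to 5 genes at an unadjusted p under 0.05, and with 1 array left out it ranged from 0 to 0. Their median difference (0.06) ranged from -0.01 to 0.14 with 1 array left out. The count of genes whose groups did not overlap (29) was 48 with quantile normalization and 11 with median centring, and 39 to 82 with 1 array left out, where 73.3% to 79.4% of all features did not overlap either, as a group of 1 overlaps less easily. The count of intervals within 0.5 (82) ranged from 46 to 80 with 1 array left out. The count of all features past the threshold (159) was 1602 with normexp on median signals, 83 with quantile normalization, 613 on probes above background on all 4 arrays, 2048 with a variance trend, 984 at a threshold of 0.1, and 0 without the filter on dim probes, where 3956 had an unadjusted p under 0.05. Leaving out each array gave 0 to 0, with 2748 to 4116 features below an unadjusted p of 0.05; such a fit takes the single array's spread from the other pair. Under the replicate block, which is also the slide axis that the groups share, it was 0, with 3968 at an unadjusted p under 0.05. Same-numbered arrays had deviations correlated at 0.0505, which does not settle whether numbers pair samples. The count of other translation genes past the threshold (1) was 5 with normexp, 8 with a variance trend, 2 at a threshold of 0.1, and 0 with quantile normalization, without the filter, with the replicate block and with the arrays centred on the ribosomal protein genes, and leaving out each array gave 0 to 0. The share with a pyrimidine tract (57.1%) was 32.9% with the C exactly at the start. Of 420 values of 30 named ribosomal protein genes under alternatives, 37 changed sign, all in genes with a main difference of at most 0.10, and 0 passed the threshold. Normexp on median signals and centring on the ribosomal protein genes were chosen after seeing the data. For none of these counts was a cause tested.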
